A study of Rattus norvegicus with 20 samples.

Results

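The miR-344 family of rat made up 7 of the 617 mature miRNA names found in the adBNST, the anterodorsal subdivision of the bed nucleus of the stria terminalis, which is a small forebrain region studied for its part in anxiety. The members were taken by name, as every miRNA name that begins with rno-miR-344, all arms included. They were miR-344a-3p, miR-344a-5p, miR-344b-1-3p, miR-344b-3p, miR-344b-5p, miR-344g and miR-344i, and each had its own counts, so the 7 names were 7 measurements. A miRNA was tested where 5 or more of the 20 libraries had 10 or more counts of it, which held for 6 of these names and for 500 miRNAs in all. miR-344a-5p, with 32 reads in all, did not pass that filter. The family comprised 315 distinct sequences and 84425 reads, which was 0.0339% to 0.0901% of all miRNA reads, by library.

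Small RNA was sequenced from punches of both adBNST sides of 20 rats of the Sprague-Dawley stock, in 4 groups of 5. From weaning at postnatal day 21 the rats lived alone (socially isolated, SI) or in cages of 3 littermates of the same sex (group housed, GH) for 6 weeks, up to an age of 9 weeks. Each housing had a group of males and a group of females, and no group received a drug. All rats were tested on the elevated plus maze on the day the tissue was taken, and the female samples had been picked for high RNA integrity and for a range of estradiol levels. Each rat gave 1 library, made from 215 ng of RNA with 22 cycles of PCR.

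The libraries held between 3428930 and 11383055 miRNA reads, with a median of 6705043. Of the 5 miRNAs used as neuronal markers, all detected, miR-9a-5p was the most counted miRNA of all. Among the rest, miR-128-3p ranked 7, miR-124-3p 14, miR-218a-5p 42 and miR-138-5p 190. All 5 markers of choroid plexus and epithelium were also detected. Among them miR-204-5p ranked 58, miR-211-5p had reads in 20 libraries, miR-200b-3p in 17, miR-200a-3p in 5 and miR-429 in 2, and their summed level (RPM, defined with the levels) ran from 779.2 to 16830, the highest in an SI male. Rats are named here by their number, with G or I for the housing and M or F for the sex. A male and a female SI rat share the number I17, and their file names contradict their labels as to sex. Both were placed by label, and for the differences between SI and GH rats of 1 sex, values with the 2 libraries exchanged are given where the exchange turned a direction or moved a difference given here by over 1.5 times. The SI females held 6255123 to 7805174 miRNA reads and the GH females 3602338 to 8205770. Each SI female listed fewer distinct miRNA sequences (11399 to 16310) than each GH female (17315 to 20913), and since only sequences with at least 2 reads were listed, rare members stand beside that difference, whose part in them was not tested.

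A miRNA is cut from a hairpin precursor, and either arm, named 5p or 3p by its place in the hairpin, can be loaded into an Argonaute protein. The loaded strand finds target mRNAs mainly through its seed, bases 2 to 8, so reads that differ in the seed would be expected to pair with other targets. The miR-344 family is known from rodents, where several hairpin copies lie near each other and have been described mainly in neural tissue. Reads of a miRNA that differ from its reference in an end or a base are called isomiRs.

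In the RefSeq annotation of the rat genome GRCr8, 7 family genes lie on the minus strand of chromosome 1, over 810 kb. Mir344b-2, Mir344b-1 and Mir344b-3 lie within 16.1 kb. After a gap of 610 kb follow Mir344a-2, Mir344-1, Mir344g and Mir344i, over 183 kb. The table lists no other miRNA gene within 1 Mb of the family. Beyond Mir344i lie Ndn, at 423 kb, then Magel2, Mkrn3 and Peg12, at 536 kb, which are known as genes expressed from the paternal chromosome. Mir344b-2 overlaps the long noncoding RNA gene LOC120099831. The Mir344b-2 and Mir344b-3 hairpins were identical, Mir344b-1 matched both in 98.6% of aligned bases, Mir344a-2 matched Mir344-1 in 95.8%, and Mir344g matched Mir344i in 88.3%. Reads of one copy therefore cannot always be told from those of another.

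The mature sequences below are from RefSeq (GRCr8) and are shown because the reads are described against them. Capitals mark the seed. RefSeq held 6 of the 7 names of the files, and it lists the 3p strand of Mir344-1 as rno-miR-344-3p. The first 2 sequences share all but base 2 (A2G, counted from 1 at the 5′ end of miR-344b-1-3p), and miR-344b-5p and miR-344g share a seed. miR-410-3p, of the chromosome 6 miRNA cluster, is shown because its seed is that of miR-344b-1-3p.
rno-miR-344b-1-3p: gAUAUAACcaaagcccgacugu
rno-miR-344b-3p: gGUAUAACcaaagcccgacugu
rno-miR-344-3p: uGAUCUAGccaaagccugaccgu
rno-miR-344b-5p: aGUCAGGCugcugguuauauuc
rno-miR-344g: aGUCAGGCuccuggcaggaguc
rno-miR-344i: cUCUAGCCagggcuugacugca
rno-miR-344a-5p: uCAGGCUCcuggcuagauu
rno-miR-410-3p: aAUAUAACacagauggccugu

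The hairpin of Mir344b-1 (GRCr8, chr1:124035661-124035758, minus strand) shows how both arms of the letter b lie in 1 transcript. Capitals mark miR-344b-5p, on the left, and miR-344b-1-3p, on the right.
Mir344b-1: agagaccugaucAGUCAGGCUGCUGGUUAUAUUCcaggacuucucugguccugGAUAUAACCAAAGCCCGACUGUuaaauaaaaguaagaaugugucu

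The sequences that were read most are shown next, as the deposited files list them in DNA letters. Capitals mark the bases in which the forms of one miRNA differ, or the seed for the forms of miR-344b-5p.
miR-344b-1-3p, reference: gatataAccaaagcccgactgT
miR-344b-1-3p, A7G and T22A: gatataGccaaagcccgactgA
miR-344b-1-3p, A7G: gatataGccaaagcccgactgT
miR-344a-3p, reference: tgatctagccaaagcctgacTgt
miR-344a-3p, T21C: tgatctagccaaagcctgacCgt
miR-344b-5p, reference start: aGTCAGGCtgctggttatattcca
miR-344b-5p, first 2 bases missing: tCAGGCTGctggttatattcc

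The members fell into an abundant trio and 4 sparse names. miR-344b-1-3p led with 34600 reads and ranked 163 of 617 by mean RPM (reads of a name scaled to the same miRNA total in each library), miR-344a-3p followed with 25298 reads and rank 179, and miR-344b-5p with 21942 reads and rank 186. miR-344b-3p had 1352 reads, miR-344i 1063 and miR-344g 178. The mean RPM over the 20 rats was 271.5 ± 64.4 (SD) for miR-344b-1-3p, 201 ± 55.1 for miR-344a-3p, 170.8 ± 46.1 for miR-344b-5p, 10.1 ± 12.7 for miR-344b-3p, 8.77 ± 6.23 for miR-344i and 1.5 ± 1.85 for miR-344g. In this order, the first 3 levels overlapped between rats and so did those of miR-344b-3p, miR-344i and miR-344g, whereas the lowest rat of the trio lay above the highest rat of the others. A level compared between miRNAs also carries how well each is ligated and amplified, which was not measured here.

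Levels by rat are given as log2 normalized counts, that is counts divided by the effective library size (edgeR's TMM), multiplied by its mean over the libraries, plus 1, on the log2 scale. For miR-344b-1-3p, the GH males G16M, G19M, G18M, G20M and G21M had 10.58, 10.74, 11.12, 11.15 and 11.00, and the SI males I15M, I19M, I22M, I17M and I20M had 11.07, 10.79, 11.09, 10.54 and 10.70. The GH females G15F, G12F, G16F, G13F and G17F had 9.90, 10.76, 10.51, 10.69 and 10.73, and the SI females I14F, I10F, I17F, I12F and I16F had 10.70, 10.87, 10.67, 10.86 and 9.72. GH and SI rats overlapped in both sexes, and the lowest values were those of G15F and I16F. The log2 fold change of SI against GH was -0.08 (95% interval -0.56 to 0.40) in males and 0.07 (-0.41 to 0.55) in females, or 0.044 in females with the I17 libraries exchanged.

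For miR-344a-3p, in the same order of rats, GH males had 10.25, 10.09, 10.75, 10.55 and 10.42 and SI males had 10.52, 10.10, 10.53, 10.51 and 9.73. GH females had 10.18, 10.63, 10.35, 10.40 and 10.47, within 0.164 (SD), and SI females had 10.53, 10.39, 9.71, 9.97 and 9.15, with an SD of 0.553. In females, 3 of the 5 SI rats lay below all GH rats and I14F and I10F lay among them. The log2 fold change was -0.12 (95% interval -0.63 to 0.39) in males and -0.38 (-0.90 to 0.13) in females. Without I16F, which stood lowest, the value in females was -0.20. With the I17 libraries exchanged it was -0.27 in males and -0.22 in females.

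miR-344b-5p is the other arm of the b hairpins. GH males had 9.52, 10.23, 10.47, 10.41 and 10.05 and SI males 10.52, 10.20, 10.28, 9.99 and 9.46. GH females had 10.60, 9.73, 10.13, 9.84 and 10.06 and SI females 10.21, 10.04, 9.77, 8.90 and 10.22. The groups overlapped, and I12F was the single rat below 9. The log2 fold change was -0.04 (95% interval -0.60 to 0.52) in males and -0.21 (-0.77 to 0.36) in females. With the I17 libraries exchanged it was -0.079 in males.

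**Figure D1:**
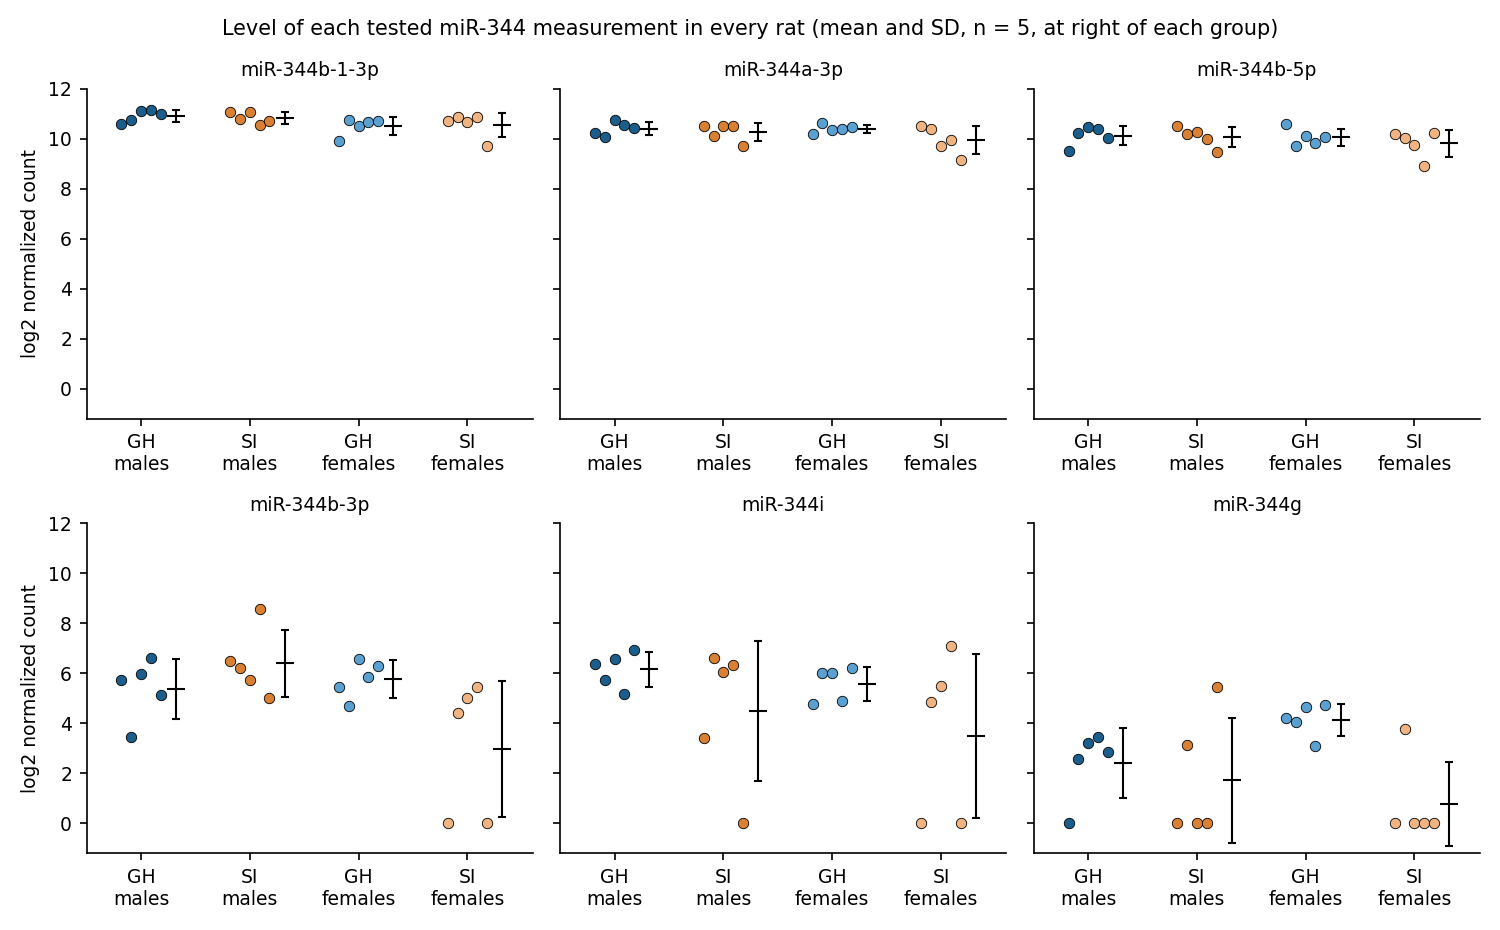
Log2 normalized counts of the 6 tested miR-344 measurements (vertical axis) in every rat, with 1 point per rat by group and the mean with its SD (n = 5) beside the points. The 3 abundant members lie between 8.90 and 11.15 in all rats, whereas miR-344b-3p, miR-344i and miR-344g reach 0 in some rats, mostly SI.

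The sparse members varied far more. miR-344b-3p, whose reference differs from miR-344b-1-3p by A2G, had 41, 6, 38, 126 and 43 reads in GH males and 144, 85, 37, 434 and 32 in SI males. It had 54, 22, 91, 45 and 55 reads in GH females and 0, 21, 34, 44 and 0 in SI females. The 434 reads of I17M stood apart, and 432 of them came from 4 of its 5 sequences. The log2 fold change was 1.28 (95% interval -0.80 to 3.36) in males and -1.64 (-3.75 to 0.47) in females. In males it was 0.26 without I17M. With the I17 libraries exchanged it was 0.11 in males and 0.58 in females, so the direction in females turned.

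miR-344i, a 3p strand, was read in 10 of 10 GH libraries and 7 of 10 SI libraries. Its counts were 63, 32, 58, 46 and 154 in GH males, 16, 112, 46, 92 and 0 in SI males, 33, 57, 62, 23 and 51 in GH females and 0, 29, 48, 141 and 0 in SI females. miR-344g, which lies on the 5p arm, was read in 9 of 10 GH and 3 of 10 SI libraries. It had 0, 3, 5, 13 and 8 reads in GH males, 0, 9, 0, 0 and 44 in SI males, 22, 14, 23, 6 and 18 in GH females and 0, 13, 0, 0 and 0 in SI females. Among females, 4 of 5 SI rats had no listed read of miR-344g and I10F lay within the GH range. The log2 fold change of miR-344g was 0.77 (95% interval -2.78 to 4.31) in males and -2.77 (-6.53 to 0.99) in females, and without I10F it was -7.18 in females (edgeR adjusted p = 0.0604), a fitted value against libraries at 0 that depends on the prior count. For miR-344i it was -0.61 (-3.05 to 1.82) in males and -0.29 (-2.71 to 2.14) in females, or -0.056 in females with the I17 libraries exchanged. miR-344b-3p was read in 10 of 10 GH and 8 of 10 SI libraries. A count of 0 allows up to 3 counts of the library, by counting error alone. This bound takes every read as listed, and sequences with a single read, which were not listed, come on top of it.

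**Figure D2:**
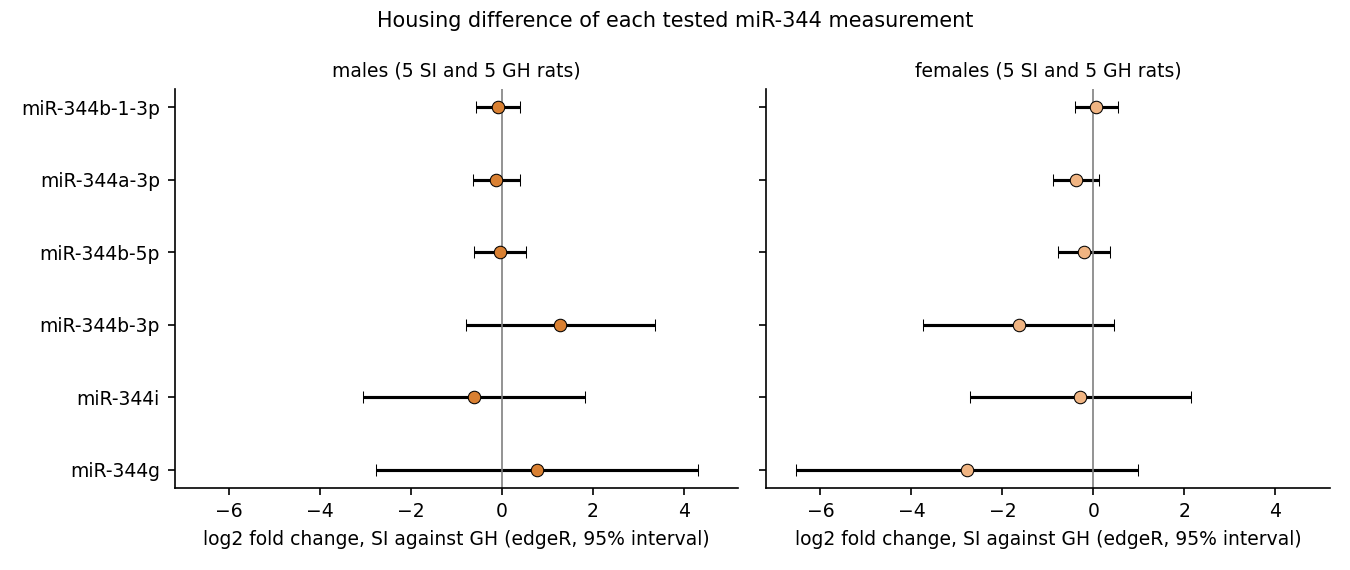
Log2 fold change of SI against GH (horizontal axis) for each tested miR-344 measurement, in males on the left and females on the right, with edgeR's 95% interval (5 SI and 5 GH rats each). Every interval includes 0, and those of the 3 sparse members are the widest, from -6.53 to 0.99 for miR-344g in females.

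None of the 6 members passed the test between the housing conditions. In males, 0 of 6 passed edgeR's quasi-likelihood test at an adjusted p of 0.05 (lowest adjusted p = 0.502), where 4% of all tested miRNAs did, and 0 of 6 had an unadjusted p under 0.05. In females, 0 of 6 passed (lowest adjusted p by edgeR 0.395), against 0.4% of all, and 0 had an unadjusted p under 0.05. Over both sexes, 0 of 6 passed (lowest adjusted p by edgeR 0.353), against 17.6% of all, and again 0 had an unadjusted p under 0.05. Of all 500 miRNAs, edgeR gave an unadjusted p under 0.05 to 115 in males, 104 in females and 161 over both sexes. DESeq2 called 0 members in each of these comparisons, with 0 unadjusted p under 0.05 among the 4 members to which it gave an adjusted p in males and the 5 in females and over both sexes. It called 14.4%, 17.9% and 30.1% of all miRNAs with an adjusted p in males, in females and over both sexes. The median log2 fold change of the 6 members was -0.06 in males and -0.34 in females, beside -0.01 and -0.13 over all 500 miRNAs. In tissue punches, fewer cells that express a miRNA and less of it per cell cannot be told apart.

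For the interaction, which tests whether the effect of housing differed between the sexes, 0 of 6 members were called (lowest adjusted p by edgeR 0.692, for miR-344b-3p at -2.92, 95% interval -5.88 to 0.03, or 0.47 with the I17 libraries exchanged), against 0.4% of all miRNAs. With edgeR 0 members had an unadjusted p under 0.05 there, beside 36 of 500 miRNAs, and with DESeq2 1 had, beside 43 of 586. DESeq2 called 0 members there and 1.02% of all. Between GH females and GH males, 0 of 6 members passed, as did 0% of all miRNAs, and all adjusted p-values were 0.996 (edgeR), with 0 unadjusted p under 0.05 by either tool (DESeq2 called 0 members and 0.853% of all). Between SI females and SI males, 0 of 6 passed, again with 0% of all miRNAs, and 1 had an unadjusted p under 0.05 by each tool, beside 50 of 500 miRNAs by edgeR and 52 of 586 by DESeq2 (which called 0 members and 0.853% of all). That member was miR-344b-3p, at -2.72 ± 1.06 (SE) in edgeR (adjusted p = 0.345), -1.69 without I17M and 0.67 with the I17 libraries exchanged.

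The reads of miR-344b-1-3p held 2 sequences that differ within the seed. In 12759 of its 34600 reads, or 36.9%, the substitution A7G was present, and it was found in all 20 libraries. Among the 264 miRNAs with at least 5000 reads, only 2 had a larger share of a single substitution, and the median of that share was 0.232%. The substitution changed the seed from AUAUAAC to AUAUAGC as RNA, and no reference miRNA in these files had the latter. None of the 419 rat hairpins in the RefSeq table held the most read sequence with A7G.

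By rat, the share of A7G was 33.0%, 39.1%, 45.1%, 34.3% and 35.5% in GH males and 32.8%, 27.7%, 47.9%, 40.9% and 31.4% in SI males. It was 65.4%, 39.8%, 38.5%, 37.8% and 38.5% in GH females and 38.1%, 32.6%, 32.9%, 33.8% and 31.1% in SI females. The males overlapped throughout, and among females I14F alone reached the GH range, while G15F stood far above all other rats (95% Wilson interval 62.7% to 68.1%, 793 of 1212 reads). Such intervals cover counting error only, since reads carry no molecular identifiers here.

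The mean share was 37.4% ± 4.89 (SD, n = 5) in GH and 36.1% ± 8.13 in SI males, a difference of -1.26 points (exact permutation test, two-sided, p = 0.770). The female groups had means of 44.0% ± 12 (GH) and 33.7% ± 2.63 (SI), a difference of -10.3 points (exact permutation test, two-sided, p = 0.0159, adjusted p = 0.0952 over the 12 tests of this kind). Without G15F the difference in females was -4.96 points (exact permutation test, adjusted p = 0.143). With the I17 libraries exchanged it was -8.71 points in females (exact permutation test, adjusted p = 0.229) and -2.86 in males. Without G13F it was -11.9 points in females, and its adjusted p by the exact permutation test was then 0.0476. The measure was chosen after the reads were seen. The planned measure of reads identical to the reference gave the mirror value in females, 49.5% ± 4.85 in SI and 39.0% ± 9.64 in GH rats (exact permutation test, two-sided, p = 0.0159, adjusted p = 0.286 over 18 tests).

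In G15F it was the reference form that was scarce. This rat had 96.6 RPM with A7G, where the other GH females had 94.2 to 129, and 51.1 with the reference base, where they had 151 to 200. The lowest A7G level was that of I16F, at 34.1 RPM, which also had 75.5 with the reference base. The highest was 164 in G18M.

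The reads with A7G also had another 3′ end. In 8084 of the 12759 reads with A7G, or 63.4%, the last reference base was read as A (T22A), against 218 of 21654, or 1.01%, of the reads without a mismatch. The deposited values list this ending as a removed T and an added A, not as a mismatch. Some of these reads had further added bases after the A. By rat, the share with T22A ran from 46.1% to 78.7% among A7G reads and from 0% to 3.22% among the others, so the 2 ranges did not overlap in any of the 20 libraries. The reference 3′ end was kept in 30.8% of the A7G reads and in 75.6% of the others. As the form sequences above show, the most read A7G sequence thus differed from the reference in its seventh and its last base, and it made up 7284 reads. miR-344b-3p had a like ending: 410 of its 1352 reads, or 30.3%, carried T22A, in 14 libraries, and its most read sequence was of that form, with 280 reads.

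**Figure D3:**
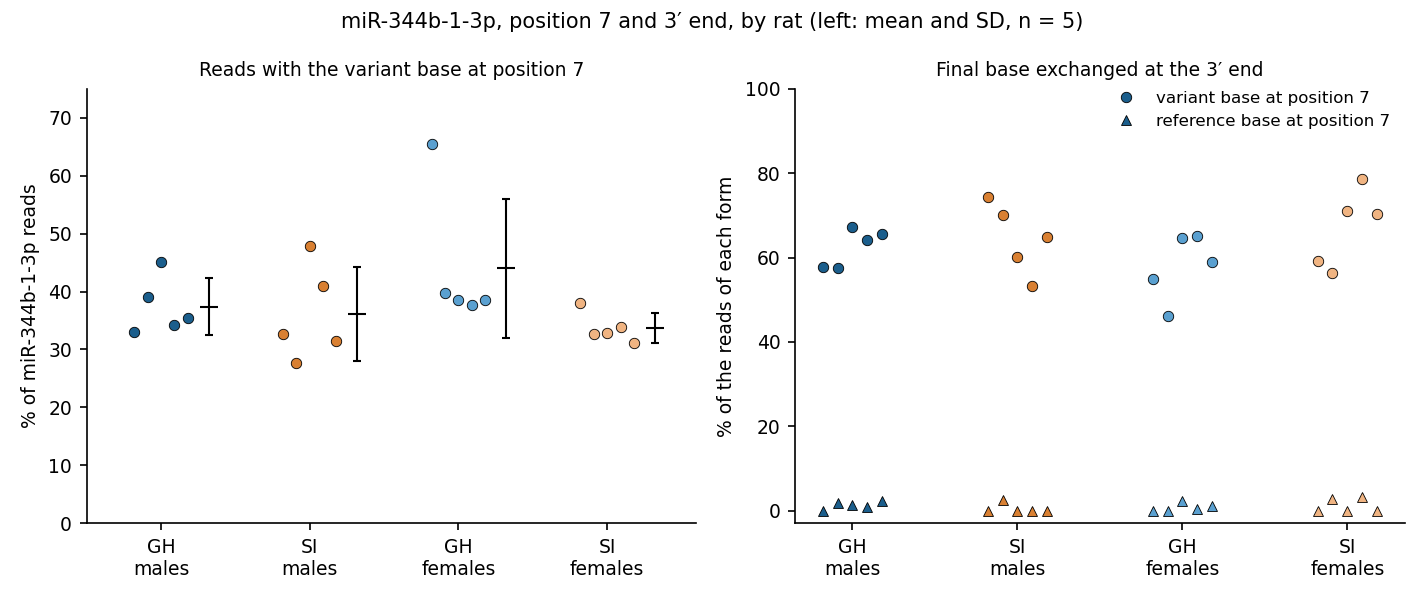
Left, the share of miR-344b-1-3p reads with the variant base at position 7 in each rat by group (vertical axis in percent, mean and SD beside the points, n = 5). Right, the share of reads whose last reference base is exchanged for A, with or without further added bases, for reads with the variant (circles) and with the reference base at position 7 (triangles). The circles lie between 46.1% and 78.7% and the triangles between 0% and 3.22%, and G15F stands out on the left at 65.4%.

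miR-344b-1-3p with its reference seed shared that seed with miR-410-3p, an abundant brain miRNA of the imprinted cluster on chromosome 6. The miR-344b-1-3p reads with this seed came to a median of 169 RPM (47.4 to 232) and those of miR-410-3p to 287 (48.9 to 638). The share of miR-344b-1-3p among both ran from 14.1% in G15F to 60.7% in I16F, with a median of 35.4%. It was 35.3%, 29.6%, 32.3%, 35.5% and 27.8% in GH males and 48.8%, 48.0%, 38.4%, 47.8% and 44.3% in SI males, and these groups did not overlap. It was 14.1%, 24.2%, 20.7%, 27.7% and 28.8% in GH females and 35.6%, 25.0%, 39.7%, 50.3% and 60.7% in SI females, where I10F lay among the GH rats.

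The mean share of miR-344b-1-3p in this shared seed was 32.1% ± 3.43 in GH and 45.4% ± 4.29 in SI males (SD, n = 5 each), higher by 13.4 points (exact permutation test, two-sided, p = 0.00794, which no assignment of 5 and 5 rats can go below). For females it was 23.1% ± 5.94 in GH and 42.3% ± 13.7 in SI rats, higher by 19.1 points (exact permutation test, two-sided, p = 0.0238). Both had an adjusted p of 0.0952 over the 12 tests and were chosen after the reads were seen, so neither passed the correction. This rests on single libraries: by the exact permutation test the adjusted p was 0.0476 in females without I10F, where the difference was 23.5 points, and 0.0476 in males when I10F or G13F was left out of the tests in females, where the difference in males stayed at 13.4 points. By the same test the adjusted p in females was 0.143 without G15F and 0.127 with the I17 libraries exchanged. In males it was 0.0952 at both settings. All reads of the member, those with A7G included, had log2 fold changes of -0.08 in males and 0.07 in females, as given above. Without mismatched reads the value was 0.12 over both sexes. Its reads with the shared seed came to 155.5 to 232 RPM in GH and 139.1 to 199 in SI males. In females they came to 47.41 to 199.9 RPM in GH and 75.46 to 194.3 in SI rats, so housing groups overlapped in both sexes. The log2 fold change of miR-410-3p was -0.87 ± 0.36 (SE, adjusted p by edgeR 0.134) in males and -0.65 ± 0.36 (adjusted p by edgeR 0.316) in females. Over both sexes it was -0.76 ± 0.25 (adjusted p by edgeR 0.0412), where it passed the threshold. Beside this, the summed RPM of the mural markers miR-143-3p and miR-145-5p, both detected, was 9479 to 16250 in GH and 4087 to 6289 in SI males and 12020 to 23770 in GH and 1704 to 14230 in SI females. That of the endothelial markers miR-126a-3p and miR-126a-5p, both detected, was 1001 to 1234 in GH and 260.9 to 645.3 in SI males and 910.9 to 2690 in GH and 66.39 to 1133 in SI females. These sums were mostly miR-143-3p (mean RPM 10280) and miR-126a-3p (877.3). The blood markers' sum went the other way, at 1050 to 1399 in GH and 1354 to 3146 in SI males and 954 to 1440 in GH and 1396 to 3354 in SI females. That sum was almost all miR-486 (mean RPM 1591). The other blood markers were sparse, with miR-451-5p at 8.62 in 16 libraries and miR-144-3p at 1.78 in 9. Sums of the neuronal, oligodendrocyte, choroid and microglial markers overlapped between the housing groups in both sexes. The part of these markers in the shares was not tested.

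**Figure D4:**
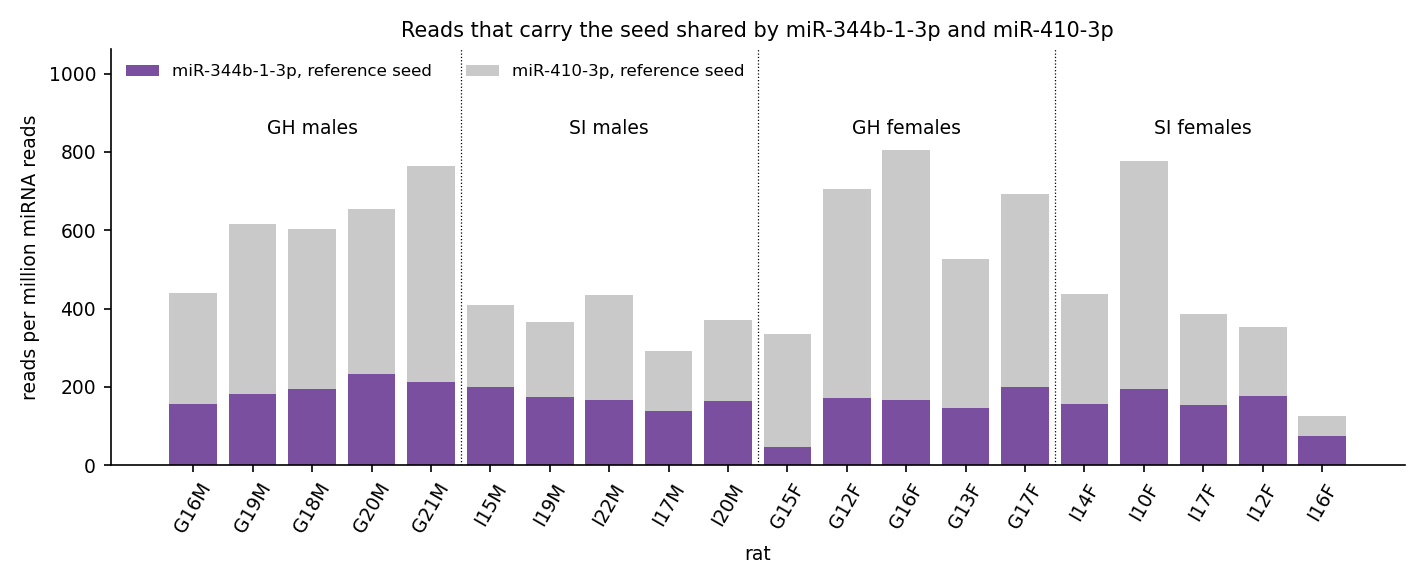
RPM of the reads that carry the seed shared by miR-344b-1-3p (lower part of each bar) and miR-410-3p (upper part), with 1 bar per rat by group. The lower part lies between 139 and 232 in all rats but G15F and I16F, at 47.4 and 75.5, whereas the upper part runs from 48.9 to 638.

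miR-344a-3p, whose strand could come from Mir344a-2 or Mir344-1, was read in 2 forms that differ by T21C, outside the seed. The reference form, which lies in the Mir344a-2 hairpin, had 16810 reads, or 66.5% of the reads of miR-344a-3p. The form with T21C lies in the Mir344-1 hairpin, had 2877 reads and was found in all 20 libraries. In the files it is listed either as a mismatch or as bases added at the 3′ end, so that the files' field of added bases overstates additions for this miRNA. Whether every T21C read came from Mir344-1 was not tested.

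Reads with T21C, of any length that reaches this base, made up 16.5%, 15.96%, 17.8%, 25.0% and 12.4% of miR-344a-3p in GH males and 17.8%, 26.3%, 21.2%, 16.3% and 28.4% in SI males. They made up 12.9%, 13.1%, 18.2%, 12.2% and 23.8% in GH females and 31.9%, 8.27%, 29.7%, 20.8% and 19.5% in SI females. The extremes were I10F (95% Wilson interval 6.94% to 9.84%) and I14F (29.7% to 34.2%), both SI females, and housing groups overlapped in both sexes. SI and GH means were 22.0% ± 5.27 and 17.5% ± 4.63 in males (exact permutation test, two-sided, p = 0.175) and 22.0% ± 9.41 and 16.02% ± 4.95 in females (exact permutation test, two-sided, p = 0.246, SD, n = 5). With the I17 libraries exchanged, the difference in T21C went from 4.48 to 7.17 points in males and from 6.01 to 3.32 in females. With these bases read as template, the share of reads with an added 3′ nucleotide was 7.28% ± 1.09 in GH and 5.58% ± 1.31 in SI males (exact permutation test, two-sided, p = 0.0476, adjusted p = 0.143) and 5.60% ± 1.14 in GH and 8.72% ± 5.66 in SI females (exact permutation test, two-sided, p = 0.294).

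Of the 3 abundant members, miR-344b-5p had the most variable start. Its reference 5′ end was kept in 83.8% of its reads, against 98.6% for miR-344b-1-3p and 98.9% for miR-344a-3p. The sparse members miR-344i and miR-344b-3p kept it in 82.1% and 80.8%, and miR-344a-5p in 26 of its 32 reads. In 13.8% of the reads of miR-344b-5p the first 2 bases were missing, which moves the seed from GTCAGGC to CAGGCTG. By rat this share was 3.13%, 6.57%, 17.8%, 13.2% and 8.47% in GH males, 10.02%, 16.9%, 9.73%, 43.9% and 17.3% in SI males, 15.4%, 11.7%, 9.86%, 9.22% and 13.5% in GH females and 22.5%, 7.52%, 7.98%, 12.7% and 8.45% in SI females. I17M stood apart at 43.9% (95% Wilson interval 41.0% to 46.7%, 514 of 1172 reads), and all other rats were at or below 22.5%.

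The SI and GH means for this start were 19.6% ± 14.1 and 9.84% ± 5.76 in males (exact permutation test, two-sided, p = 0.167) and 11.8% ± 6.32 and 11.9% ± 2.55 in females (exact permutation test, two-sided, p = 0.984, SD, n = 5). The difference of 9.72 points in males was 3.65 without I17M and 2.55 with the I17 libraries exchanged, and the exchanged value in females was 7.08 points. Without I17F it was 0.867 points in females. The substitution G10A of miR-344b-5p was found in 549 reads of 14 libraries, from 0% to 12% of its reads, the highest in I22M.

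**Figure D5:**
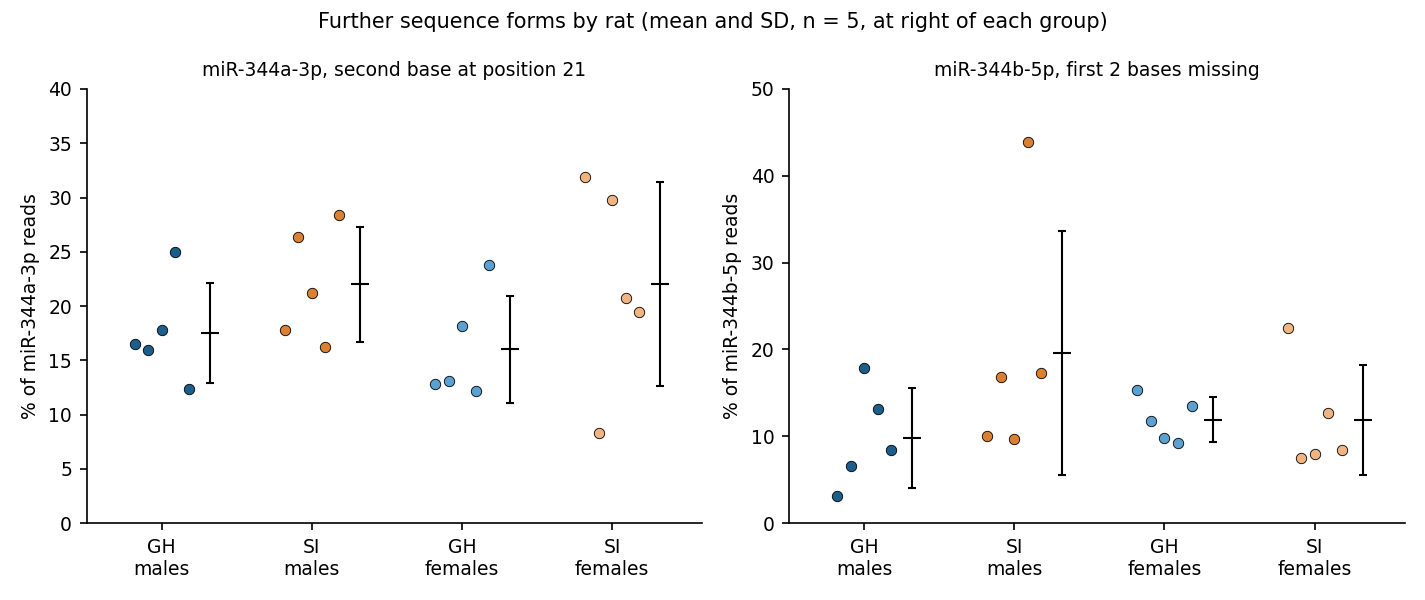
Shares of 2 further sequence forms in each rat by group (vertical axes in percent of the reads of the miRNA, mean and SD beside the points, n = 5). Left, the second base at position 21 of miR-344a-3p, from 8.27% to 31.9%. Right, miR-344b-5p without its first 2 bases, where I17M lies at 43.9% and all other rats at or below 22.5%.

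Read by seed, the family's reads therefore fell mainly into 4 groups. The seed GATCTAG of miR-344a-3p held 29.5% of the family's reads, ATATAAC of miR-344b-1-3p 25.2%, GTCAGGC, almost all of miR-344b-5p, 21.8%, and ATATAGC, that of the A7G reads, 15.1%. Of the 18381 reads with GTCAGGC, at most 178 were of miR-344g. The shifted seed CAGGCTG held 3.49%, GTATAAC of miR-344b-3p 1.28% and TCTAGCC of miR-344i 1.055%. The share of the A7G seed by rat lay between 10.1% and 20.8%, with a median of 15.3%.

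The balance of the arms of the letter b, as log2 of the reads of miR-344b-1-3p and miR-344b-3p over those of miR-344b-5p, lay on the 3p side in 18 of 20 rats. These 3p reads include those with A7G, whose most read sequence no RefSeq hairpin held, and the count of 18 depends on them. By 3p reads without a mismatch, G19M, G18M, I22M, G16F and I14F also lay on the 5p side, beside G15F and I16F. In G18M, 725 reads of miR-344b-1-3p without a mismatch and 38 of miR-344b-3p stood beside 864 of miR-344b-5p. In G20M, 1917 and 126 such reads stood beside 1766. With the A7G reads counted, the exceptions were G15F, at -0.64, and I16F, at -0.50, and the highest value was 1.99 in I12F. In males the mean was 0.85 ± 0.26 in SI and 0.82 ± 0.23 in GH rats (exact permutation test, two-sided, p = 0.849), and in females it was 0.75 ± 0.90 in SI and 0.50 ± 0.67 in GH rats (exact permutation test, two-sided, p = 0.659, SD, n = 5). The 3p arm of the letter a had 25298 reads beside 32 of its 5p arm.

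At the level of single isomiRs, 43 forms of the family were among the 10290 tested, and edgeR called 0 in males (lowest adjusted p = 0.403), against 0.00972% of all isomiRs, and 0 in females (lowest adjusted p by edgeR 0.318), against 0% of all. Unadjusted p-values under 0.05 were given to 2 of the 43 forms in males and 4 in females, beside 938 and 950 of all 10290. In females the lowest p was that of miR-344b-3p with T22A, which had 10, 22, 5, 30 and 21 reads in GH females and 0 in each of the 5 SI females, beside 28, 0, 10, 57 and 15 in GH males and 33, 28, 0, 0 and 21 in SI males. The reference form of miR-344a-3p had a log2 fold change of -0.74 ± 0.29 (SE, adjusted p by edgeR 0.380) in females. miR-344b-5p extended at the 3′ end by the bases CA had a log2 fold change of -0.94 ± 0.37 (SE, adjusted p by edgeR 0.403) in males and -0.81 ± 0.37 (adjusted p by edgeR 0.504) in females. All these values are with the count filter, and without it 1 form of the family was called in males and 1 in females.

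Across the 20 libraries, log2 normalized counts of miR-344a-3p and miR-344b-1-3p had a Spearman rho of 0.558, those of miR-344a-3p and miR-344b-5p of 0.338, and those of miR-344b-1-3p and miR-344b-5p of 0.256, although the last pair can come from the same hairpin. The 5 other miRNAs whose levels were most like that of the summed family were miR-2985 (rho 0.658), miR-107-3p (0.648), miR-146b-5p (0.636), miR-384-5p (0.617) and miR-384-3p (0.611). Of these, miR-2985 was close to the floor, with a mean RPM of 0.993, where the others had 367 to 1470. All these rho values are descriptions over libraries that share their group and their depth. The summed family had 755.5 ± 123.7 RPM in GH males, 655.3 ± 118.5 in SI males, 705.0 ± 114.5 in GH females and 538.5 ± 147.9 in SI females (SD, n = 5 each), with overlap between all groups and the lowest value, 338.6, in I16F.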

How the data were processed

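Small RNA libraries of 20 rat adBNST samples, 1 rat each, were analysed. Per the labels and the study's methods, the authors trimmed adapters, collapsed identical reads and assigned them to rat miRBase hairpins with seqbuster. The deposited values are raw read counts per distinct sequence, not normalized, and the lowest listed count was 2. No sample was left out.

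Counts were summed per miRNA name. edgeR 4.0.16 (R 4.3.3, TMM, quasi-likelihood) was fitted to the 500 miRNAs with at least 10 counts in at least 5 libraries, as 1 model of the 4 groups, with Benjamini-Hochberg adjustment and a threshold of 0.05. DESeq2 1.42.0 was an alternative. Shares of sequence forms and the arm balance (pseudocount 0.5) were compared by exact permutation tests, two-sided. Adjustment was over 18 planned and 12 added tests of forms, each set apart. The arm balance was adjusted on its own, over its tests in males and females. The scripts were tested on simulated data.

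The members, lists and rules were chosen with earlier results of these data known. The added tests (A7G, T21C, added bases with T21C read as template, missing first bases, G10A and the seed shared with miR-410-3p) were chosen after the reads were seen. Named were all names that begin with rno-miR-344, the 5 miRNAs most like the summed family, and other miRNAs within 1 Mb of it. Groups were taken from the labels. Rats of the same sex that share a number were not paired, since the study describes no pairing of animal numbers. As a check, the correlations of their deviations lay between -0.304 and 0.090. A substitution is written with the reference base first, its position from the 5′ end, then the base read.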

Additional observations from a re-analysis of the deposited data

Results flagged for a closer look

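Of 88 sets of 5 rats tested for a single distant value (Dixon's test, critical value 0.71), 12 had one, where chance marks about 1 in 20. In levels (log2 normalized counts), I16F was low for miR-344b-1-3p at 9.72, with the next SI female at 10.67. G16M was the single GH male at 0 for miR-344g, with the next at 2.56, and I10F the single SI female above 0, at 3.76.

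In the forms of miR-344b-1-3p, G15F stood apart from the other GH females with A7G in 65.4% of reads (next 39.8%) and with 21.9% of reads identical to the reference (next 42.2%). The reference 5′ end was kept in 97.9% of the reads of G16M (next GH male 99.2%), and an added 3′ nucleotide was found in 33.1% of those of I22M (next SI male 28.7%).

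For miR-344a-3p, I17F kept the reference 5′ end in 95.4% of reads where the other SI females had 100%, and I22M had an added 3′ nucleotide, with T21C read as template, in 3.28% (next SI male 5.75%). For miR-344b-5p, I14F kept the reference 5′ end in 74.0% (next SI female 87.3%), I17M lacked the first 2 bases in 43.9% (next SI male 17.3%), and I22M had G10A in 12% (next SI male 0.799%).

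miR-344a-5p, which was not tested, had 28 reads in G16M, of which 26 carried C6T, and 4 reads in I10F.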

How the results depend on the processing

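Over 1034 alternative fits of the members, 0 passed the threshold (lowest adjusted p by edgeR or DESeq2 0.0604) and 48 turned direction. The sparse members had the fewest counts. For them a 0 may be up to 3 counts by counting error alone, and single reads were not listed. The part of depth was not tested: I15M, the deepest library, had 0 reads of miR-344g, and G19M, the shallowest, had 3. The cause of each change was not tested. With the replicate block for rats that share a number, 0 members were called, and miR-344b-1-3p in females was -0.21, beside -0.13 in the same rats without the block. There, in males, miR-344b-3p was -0.021 and miR-344i 0.14. With the I17 libraries exchanged, miR-344b-3p was 0.58 in females, 0.34 over both sexes, 0.47 for the interaction and 0.67 between SI sexes, miR-344a-3p 0.048 for the interaction and 0.031 between SI sexes, miR-344i 0.19 between SI sexes, and missing first bases of miR-344b-5p 7.08 points in females. Without mismatched reads, miR-344b-1-3p was 0.12 over both sexes. Between GH sexes, miR-344a-3p was 0.0055 with DESeq2 size factors, 0.0052 by DESeq2, 0.027 with 10 counts in every library and 0.022 without mismatches. Without a count filter, 1 isomiR of the family was called in males and 1 in females. The share called over all isomiRs at that setting is not given here, so these counts have no background to be read against. Leaving out 1 rat brought 4 comparisons of added forms to an adjusted p of 0.0476 (exact permutation test): A7G in females without G13F, and the seed shared with miR-410-3p in females without I10F and in males without I10F or G13F. Leaving out 1 rat also gave ranges that cross 0. In males they were -0.19 to 0.044 for miR-344b-5p, -1.55 to 1.14 for miR-344g, -0.074 to 0.10 for the arm balance, -4.20 to 0.84 points for A7G and -2.06 to 0.996 for G10A. In females they were -0.057 to 0.26 for miR-344b-1-3p, -1.46 to 0.096 for miR-344i, -0.061 to 0.56 for the arm balance, -2.27 to 0.27 points for G10A and -2.77 to 0.98 for missing first bases. Over both sexes they were -0.068 to 0.069 for miR-344b-1-3p and -0.69 to 0.0040 for miR-344b-3p. For the interaction they were -0.25 to 0.052 for miR-344b-5p and -0.80 to 0.76 for miR-344i. Between GH sexes they were -0.091 to 0.075 for miR-344a-3p, -0.055 to 0.58 for miR-344b-3p and -0.22 to 0.019 for miR-344b-5p, and between SI sexes -6.42 to 0.36 for miR-344g and -1.40 to 0.16 for miR-344i.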
